A study of Mus musculus with 9 samples.

Results

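The interleukin-6 (IL-6) family is represented here by 9 mouse genes: the ligands Il6, Lif and Clcf1, the ligand-binding receptors Il6ra, Cntfr and Il11ra1, and the signalling receptor chains Il6st, Lifr and Osmr. They were found by gene name in the deposited count tables of a study of skeletal muscle in heart failure. All 9 genes, with 19 transcripts among 35745, were listed in the table of sham quadriceps and sham heart. The table of quadriceps after transverse aortic constriction (TAC) lists only genes with an extracellular annotation term, 587 in number, and 4 of the 9 genes were in it, namely Il6ra, Il6st, Lifr and Cntfr. The genes were chosen on their counts in these same libraries, with the differences between groups already known. Their values are therefore given as a description. Whether a member is past the threshold that was applied to every feature of its table is stated only to set the members beside all features, and is not a test of that member.

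C57Bl6 mice, of the substrain C57Bl/6JCrl in the study's methods, underwent surgery at the age of 8 weeks, and tissue was taken 12 weeks later. TAC mice had the aortic arch tied around a 27 gauge needle, which puts the left ventricle under chronic pressure overload, and sham mice were operated on without constriction. The groups were sham heart, sham quadriceps and TAC quadriceps, with 3 libraries each. No TAC heart library was analysed here. Bulk RNA of a whole muscle pools fibers with vessels, fat, nerve and immune cells, and fewer cells of a type cannot be told apart from less RNA per cell. Library totals were 23383452 to 32989108 counts in sham quadriceps, 48614494 and 48999600 in TAC libraries 1 and 2 and 33102826 to 38382751 in sham heart. The total of the remaining TAC library, whose column carries the number 4, was not used here, and its listed genes held 1326011 counts, against 1166978 and 1297786 in TAC libraries 1 and 2. The tissue labels were matched by the myosin genes: Myh6, the cardiac alpha heavy chain, had 768767 to 933029 counts in heart and 59 to 82 in sham quadriceps, and Myh4, that of fast fibers, had 32 to 50 and 559634 to 726121.

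IL-6 family cytokines signal through gp130, the product of Il6st, a receptor chain found on most cell types. IL-6, IL-11 and the CNTF group first bind their own receptor, which carries little or no signalling function itself, and this complex then engages gp130 alone or together with the LIF receptor. The receptor chains activate the kinases JAK1 and JAK2 and the transcription factor STAT3, and SOCS3 is a feedback inhibitor of the pathway. Skeletal muscle is known both to release IL-6 during exercise and to respond to chronically raised IL-6 with wasting, and gp130 signalling is known to promote cardiac myocyte survival and hypertrophy.

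The 2 receptor genes that carried the TAC result were Il6ra on the minus strand of chromosome 3 (GRCm38, 3:89864059-89913196, GENCODE vM21) and Il6st on the plus strand of chromosome 13 (13:112464070-112510086). The 250 bases before the RefSeq start site of each are shown because the RNA of both was higher in all TAC libraries. They were taken from the GRCm38.p6 promoter table and are written 5′ to 3′ on the gene's own strand. The sequence for Il6ra lies at chr3:89913197-89913446 and that for Il6st at chr13:112463820-112464069.
Il6ra: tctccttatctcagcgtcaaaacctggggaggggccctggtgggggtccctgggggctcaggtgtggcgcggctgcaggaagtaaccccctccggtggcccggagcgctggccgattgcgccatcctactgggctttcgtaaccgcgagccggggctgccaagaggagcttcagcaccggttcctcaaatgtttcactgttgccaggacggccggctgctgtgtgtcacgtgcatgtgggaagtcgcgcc
Il6st: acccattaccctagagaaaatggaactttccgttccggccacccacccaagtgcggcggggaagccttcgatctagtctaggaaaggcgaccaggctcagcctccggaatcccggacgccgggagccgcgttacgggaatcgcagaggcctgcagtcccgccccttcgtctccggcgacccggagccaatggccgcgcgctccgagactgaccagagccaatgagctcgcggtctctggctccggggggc
Both windows were rich in G and C, at 65.2% for Il6ra and 66.0% for Il6st, against a median of 52.4% over 32851 promoter windows of the same length. The windows were searched for TTCNNNGAA, the palindromic form bound by STAT factors, which reads the same on both strands. Neither sequence held it, so that no base is capitalized. It was in 0 of the 15 windows of the 8 members that had one (Clcf1 was not matched), and in 7.02% of all windows. A window without these letters says nothing about the binding of a factor there.

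Il6ra, the gene of the IL-6 binding receptor, was the member that differed most between TAC and sham quadriceps. The sham libraries 1, 2 and 3 had 37, 29 and 31 counts. The TAC libraries had 2514 counts in library 1, 237 in library 2 and 693 in library 4. The groups did not overlap, and library 1 lay far above the other TAC libraries. After TMM normalization, which scales each library to the listed genes, this was 34.0 ± 7.47 normalized counts in sham and 1120 ± 1162 in TAC (mean ± SD, n = 3 each). The log2 difference was 5.05 (SE 0.83), the first in rank of 586 tested genes, and 3.73 without TAC library 1. With the counts divided by library totals instead, for which only TAC libraries 1 and 2 were used, it was 4.67, a 25.5-fold difference. The antisense gene Gm42809 overlaps Il6ra on the opposite strand, and whether the authors counted by strand is not given in the sources used here.

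Il6st, the gp130 gene, was also higher in TAC quadriceps, from a far higher sham level. Sham libraries had 3183, 2891 and 2222 counts, and TAC libraries 1, 2 and 4 had 7694, 5883 and 8485. Normalized counts were 2855 ± 241 in sham and 7236 ± 1383 in TAC (mean ± SD, n = 3 each), again without overlap. The log2 difference was 1.34 (SE 0.21), a 2.53-fold difference and rank 38 of 586. With library totals, on TAC libraries 1 and 2, it was 0.58, or 1.49-fold, and no longer past the call rule of an adjusted p under 0.05, whereas with TMM on the same libraries it was 1.13 and past it. Size and call of Il6st thus depend on the scaling. No other annotated gene overlaps Il6st.

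The other receptor genes of the table did not separate the groups. Lifr, the LIF receptor, had 1366, 821 and 747 counts in sham and 1082, 1329 and 810 in TAC. Its log2 difference was 0.09 (SE 0.24) with TMM and -0.41 with library totals, so that the direction depends on the scaling. The TAC table lists Lifr only by its longer transcript, of 9641 bases. Cntfr, the CNTF binding receptor, varied from library to library within both groups. It had 226, 393 and 83 counts in sham and 82, 235 and 96 in TAC. The log2 difference was -0.78 (SE 0.54), and -1.21 with library totals, with the ranges of the groups overlapping on the TMM scale. Single libraries set its size, as it was -0.14 without sham library 2 and -1.40 without TAC library 2. The call rule, an adjusted p under 0.05 in the edgeR fit of all 586 genes, counted 2 of the 4 receptor genes among those higher in TAC and 0 among those lower. Over all tested genes of the table, 17.7% were called higher and 11.9% lower. The same 2 genes lay above all sham libraries without overlap, which 26.1% of the genes did, while 21.2% lay below them. These shares stand beside the members only as a background, because the choice of the members used this contrast.

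**Figure D1:**
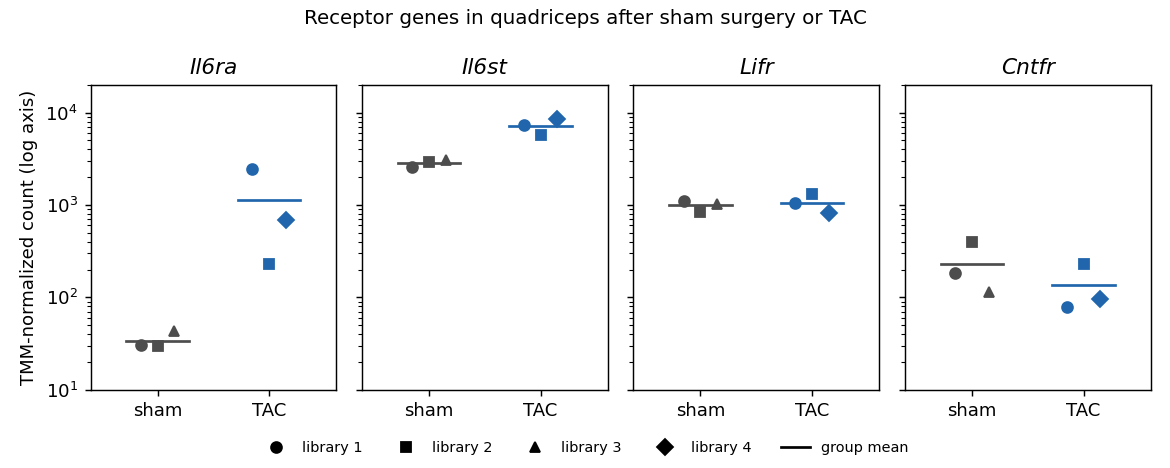
TMM-normalized counts of the 4 receptor genes in each quadriceps library after sham surgery or TAC, on a log axis, with horizontal lines at the group means. Il6ra and Il6st lie higher in every TAC library than in any sham library, Il6ra with a wide spread between TAC libraries, while the groups of Lifr and Cntfr overlap.

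The scaling matters for every value of this comparison. The median log2 difference over all 586 genes was 0.03 with TMM and -0.63 with library totals. With library totals, 20 genes (3.41%) were called higher and 180 (30.7%) lower. The values with library totals also leave out TAC library 4. With TMM on the same 5 libraries the median was -0.08, and 65 genes were called higher and 71 lower. Il6ra was past the call rule with either scaling and Il6st with TMM only, and the log2 differences of both lay above the median of the listed genes on each scale.

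**Figure D2:**
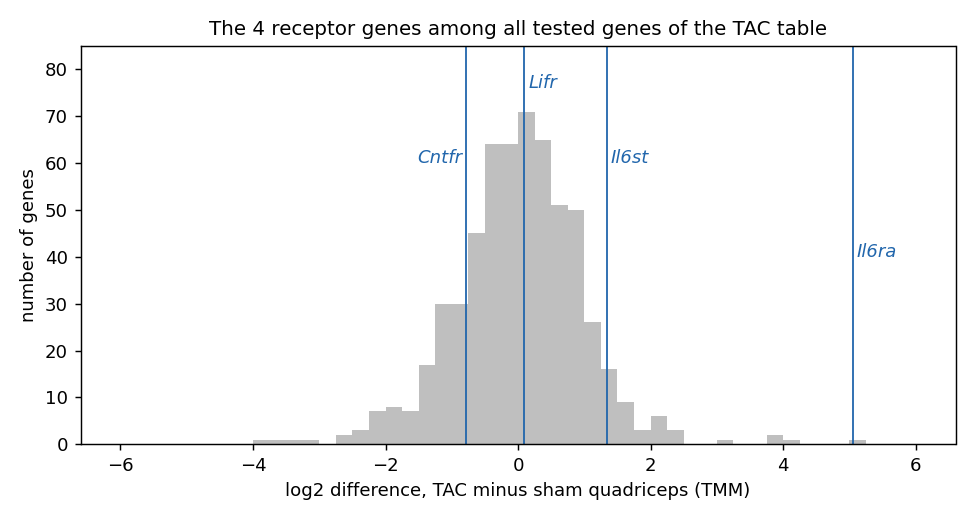
Histogram of the log2 difference between TAC and sham quadriceps (TMM scale) over the 586 tested genes, with vertical lines at the 4 receptor genes. Il6ra at 5.05 stands at the right end, Il6st at 1.34 on the right shoulder, and Lifr at 0.09 and Cntfr at -0.78 within the bulk of the genes.

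The proportion of the RNAs for the 2 parts of the IL-6 receptor differed between the groups. RPKM, which divides counts by transcript length and library total, was 0.337, 0.261 and 0.394 for Il6ra in the sham quadriceps libraries, and 15.4 and 1.44 in TAC libraries 1 and 2. For Il6st, RPKM was 17.9, 16.1 and 17.5 in sham and 29.1 and 22.1 in TAC libraries 1 and 2. The ratio of the genes needs no library total, as it divides their counts per base of transcript. By this ratio there were 53.3, 61.7 and 44.4 Il6st transcripts for each Il6ra transcript in sham quadriceps, and 1.90, 15.4 and 7.58 in TAC libraries 1, 2 and 4. In sham heart it was 40.2, 39.0 and 44.7. All TAC libraries lay below all sham libraries of either tissue, and library 1 had the lowest ratio. The ratio of Il6st to Lifr, the chains that together bind LIF, was 4.13, 6.25 and 5.28 in sham quadriceps and 12.6, 7.86 and 18.6 in TAC quadriceps, again without overlap. Both ratios restate the counts of members chosen with these differences known. They are a description and add no separate evidence.

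**Figure D3:**
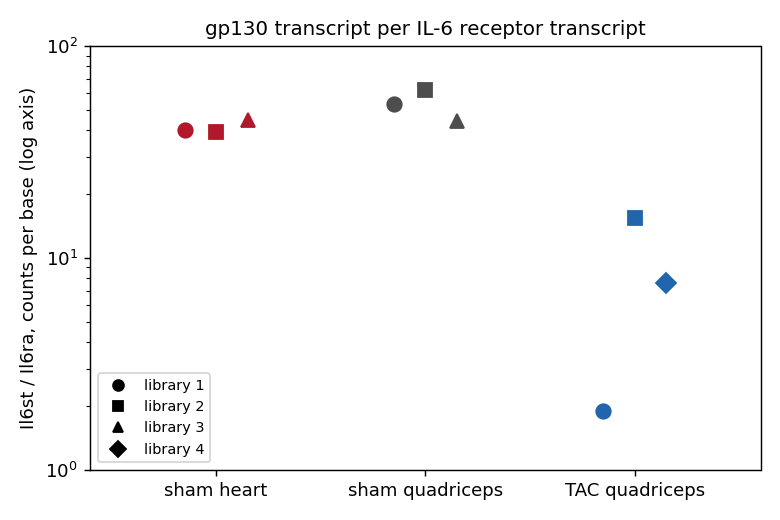
Il6st counts per base of transcript divided by those of Il6ra in each library, on a log axis, for sham heart, sham quadriceps and TAC quadriceps. Sham libraries of both tissues lie between 39.0 and 61.7, and the TAC libraries between 1.90 and 15.4.

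The genes most like Il6ra across the 6 quadriceps libraries were Vegfd, Flrt1 and Lcn2. Likeness was the root mean square difference of the log2 normalized counts, each gene centred on its own mean, and was 0.64, 0.95 and 1.27 for these genes against a median of 2.46 over 585 genes. This measure includes the difference between the groups, so it favors other genes that were much higher in TAC. It also includes the values of single libraries, so a shared order of the TAC libraries is part of how these genes were chosen. Vegfd, a lymphangiogenic growth factor, had 108, 70 and 44 counts in sham and 2091, 231 and 1132 in TAC libraries 1, 2 and 4. Flrt1, a membrane protein of the FLRT family, had 14, 29 and 25 counts in sham and 360, 65 and 205 in TAC. Both had the same order of the TAC libraries as Il6ra, with library 1 highest and library 2 lowest. Lcn2, the iron-binding acute-phase protein lipocalin 2, had 9, 8 and 6 counts in sham and 125, 205 and 73 in TAC, with library 2 highest.

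Of 62 further genes of the pathway, 12 were in the TAC table, and 3 of these rose and 0 fell (edgeR quasi-likelihood test, adjusted over all genes). That is 25% higher, beside 17.7% of all tested genes, with a median log2 difference of 0.29 beside 0.03. All 3 were among the 8 target genes listed. The pathway lists were chosen with earlier results of these data known. Their counts and p-values are therefore a description and no independent test. Lcn2 rose by a log2 difference of 4.05 (SE 0.45, adjusted p = 0.00145, n = 3 against 3 in edgeR). Il4ra, a receptor chain for IL-4 and IL-13 that STAT3 is known to induce, rose from 63.7 ± 5.16 to 205 ± 52.3 normalized counts, with a log2 difference of 1.68 (SE 0.28, edgeR adjusted p = 0.00664). Lrg1, a secreted acute-phase glycoprotein, rose with a log2 difference of 1.20 (SE 0.30, edgeR adjusted p = 0.0206), but passed in only 6 of 13 alternative settings and not with library totals, where its log2 difference was 0.48. Il4ra passed in 13 of 13 settings, and Lcn2 in 12 of the 12 in which it was tested.

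The remaining target genes of the table did not pass. Vegfa, the vascular growth factor, had 4622 ± 225 normalized counts in sham and 4555 ± 437 in TAC. Serpina3n, a serine protease inhibitor, had a log2 difference of 0.45 (SE 0.63), Icam1, an adhesion molecule, one of 0.25 (SE 0.37), Hp, haptoglobin, one of 0.17 (SE 0.51), and Lbp, the lipopolysaccharide-binding protein, one of -0.09 (SE 0.44). The ligands Ctf1, cardiotrophin-1, and Cntf, the ciliary neurotrophic factor, also did not pass, at 0.33 (SE 0.27) and 0.09 (SE 0.42). The proteases that shed the IL-6 receptor from the cell surface had log2 differences of 0.53 (SE 0.22) for Adam10 and -0.30 (SE 0.22) for Adam17, and neither passed. The transcript listed for Adam17 in the TAC table is a noncoding one in RefSeq. With library totals Adam17 passed as lower, at -1.004, and Ctf1, Cntf, Icam1, Hp and Adam10 took a negative sign without passing. The JAK kinases, the STAT factors and the SOCS inhibitors were not in the TAC table.

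Markers of other cell types moved with the same comparison. The summed TMM-normalized counts of the macrophage markers in the table (4 of 9: C1qa, C1qb, C1qc and Lyz2) were 727 to 978 in sham and 347 to 426 in TAC. Those of the fibroblast markers (6 of 7) were 9984 to 13088 in sham and 6369 to 9565 in TAC, and those of the endothelial markers (2 of 7: Pecam1 and Vwf) were 917 to 1048 and 1504 to 1589. By the call rule, 3 of the 4 macrophage markers and 5 of the 6 fibroblast markers were lower, and both endothelial markers higher. The fibroblast sum consisted mostly of Dcn, decorin, with 4345 to 9157 counts in sham and 5500 to 8610 in TAC. The collagen gene Col1a1 had 554 to 857 counts in sham and 53 to 88 in TAC, the collagen gene Col3a1 1722 to 3028 and 118 to 218, and Lum, lumican, 382 to 916 and 91 to 169. The adipocyte markers (3 of 6) spanned 315 to 2302 in sham and 415 to 2860 in TAC. The single hepatocyte marker, Alb, had 1259 counts in the TAC library numbered 4 and at most 53 in every other quadriceps library. None of the defining markers in the table was at 0 in all libraries. Markers of neutrophils, lymphocytes, Schwann cells and satellite cells were not in the table, and the part of any cell type in the differences of Il6ra and Il6st was not tested. On the TMM scale the macrophage and fibroblast sums lay lower in TAC, and the endothelial sum lay higher, as Il6ra and Il6st did. With library totals the endothelial markers overlapped, Pecam1 at 6.93 to 8.83 RPKM in sham against 8.25 and 7.38 in TAC libraries 1 and 2, and Vwf at 0.577 to 0.764 against 0.635 and 0.853.

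In the sham tissues, where all 9 genes were measured, the signalling chain Il6st was the most abundant member of the family and the ligands were the least. In sham quadriceps the order by mean RPKM was Il6st (17.2 ± 0.94), Il11ra1 (7.48 ± 0.65), Cntfr (3.74 ± 2.11), Lifr (3.41 ± 0.88), Osmr (1.32 ± 0.29), Il6ra (0.331 ± 0.067), Il6 (0.111 ± 0.100), Clcf1 (0.103 ± 0.054) and Lif (0.0254 ± 0.0159), each as mean ± SD of 3 libraries. Of neighbours in this order, Cntfr and Lifr overlapped, as did Il6 and Clcf1, and the other neighbours did not. In sham heart the order was Il6st (30.7 ± 0.43), Il11ra1 (6.25 ± 0.43), Osmr (3.24 ± 0.32), Lifr (3.09 ± 0.055), Cntfr (0.765 ± 0.427), Il6ra (0.745 ± 0.058), Clcf1 (0.136 ± 0.024), Lif (0.123 ± 0.034) and Il6 (0.0165 ± 0.0144). Osmr and Lifr overlapped there, as did Cntfr and Il6ra, and Clcf1 and Lif. In TAC libraries 1 and 2 Il6st had 29.1 and 22.1 RPKM, Il6ra 15.4 and 1.44, Lifr 2.31 and 2.81 and Cntfr 0.845 and 2.40. Il6ra thus stood below Lifr and Cntfr in every sham quadriceps library, and in TAC its range overlapped those of both.

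**Figure D4:**
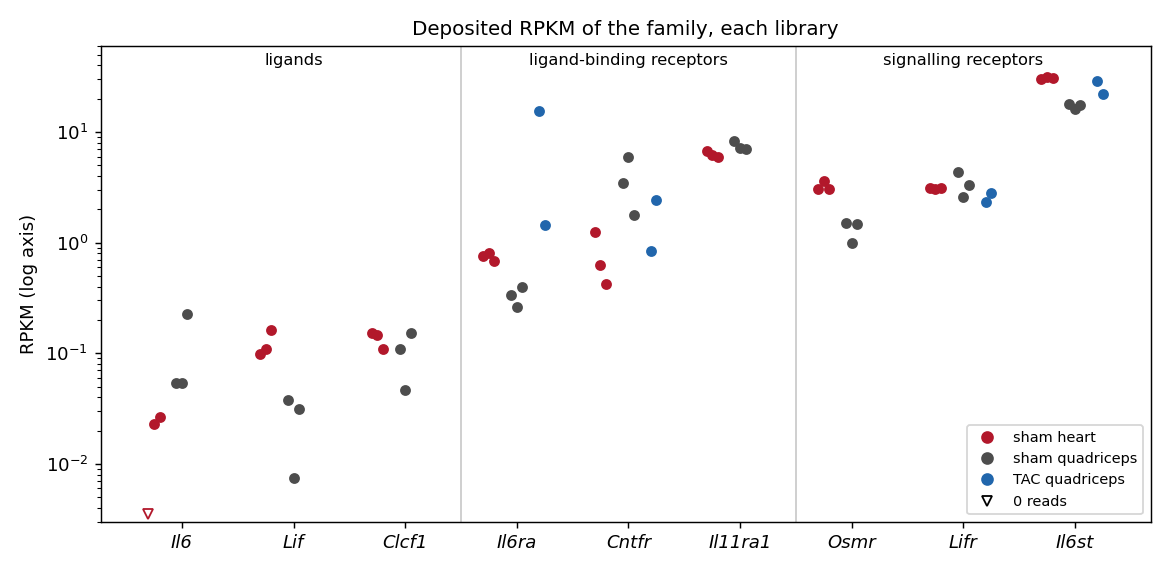
RPKM of the leading transcript of each gene in every library, on a log axis, with ligands, ligand-binding receptors and signalling receptors in separate fields. An open triangle at the lower edge marks a library with 0 reads, and TAC values are those of libraries 1 and 2 for the 4 genes of the TAC table. The ligands lie below 0.3 RPKM and Il6st above 15 RPKM in every library.

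Transcripts of the ligands were close to the limit of detection in both tissues. Il6 had 0, 1 and 1 counts in the sham heart libraries, against 2, 2 and 6 in sham quadriceps. It did not pass the filter that asks for over 5 counts in 2 libraries or more, and no fold is given. Lif, the leukemia inhibitory factor, had 15, 17 and 22 counts in the heart libraries, against 5, 1 and 3 in quadriceps, without overlap. Its log2 difference, quadriceps minus heart, was -1.53 (SE 0.51), or 2.90-fold lower in quadriceps, and it did not pass without heart library 3 or without quadriceps library 2. No quadriceps library had over 5 counts, so Lif passed the filter through heart alone. With at least 10 counts asked for in every library, Lif was not tested. Clcf1, which signals through the CNTF receptor, had 11, 11 and 7 counts in the heart libraries, against 7, 3 and 7 in quadriceps. Its log2 difference was 0.28 (SE 0.47) with TMM and -0.45 with library totals, and the groups overlapped. Clcf1 shares part of its locus (19:4214238-4223490) with another protein-coding gene on the same strand, and its 3 transcripts had identical counts. Outside the 9 genes, the ligand Osm, oncostatin M, had 1 count in a single heart library and 0 in the other libraries, and Il11 had 1 to 4 counts in heart and 0 to 3 in quadriceps.

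Among the ligand-binding receptors, Cntfr was the one that differed most between the tissues. It had 92, 48 and 28 counts in the sham heart libraries, against 226, 393 and 83 in sham quadriceps. On the TMM scale every quadriceps library lay above every heart library, with 41.2 ± 23.4 normalized counts in the heart libraries, against 343 ± 210 in quadriceps. The log2 difference was 3.06 (SE 0.48), an 8.33-fold higher value in quadriceps, and the spread within each tissue was wide. Il11ra1, the IL-11 receptor, had 456, 431 and 357 counts in the heart libraries, against 491, 437 and 299 in quadriceps. Its log2 difference was 1.01 (SE 0.10) with TMM, and 0.26 and no longer past the call rule with library totals. The 3 Il11ra1 transcripts share nearly all their counts, its annotated locus overlaps 6 other genes, and its near copy Il11ra2 had 1 count in a single library, so the division of reads between the copies is uncertain. Il6ra had 94, 103 and 76 counts in the heart libraries, against 37, 29 and 31 in quadriceps. Its log2 difference was -0.44 (SE 0.20) with TMM, and did not pass the call rule. With library totals it was -1.19 and passed, as it did at -0.56 without quadriceps library 3.

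Of the signalling chains, Osmr was lower in quadriceps with either scaling, while the sizes for Il6st and Lifr depended on the scaling. Il6st had 6104, 6497 and 5492 counts in the heart libraries, against 3183, 2891 and 2222 in quadriceps. Normalized counts were 4487 ± 23.0 in heart and 4234 ± 150 in quadriceps, a log2 difference of -0.08 (SE 0.09), while with library totals it was -0.84 and passed the call rule. Osmr, the oncostatin M receptor, had 548, 668 and 484 counts in the heart libraries, against 238, 156 and 165 in quadriceps. Its log2 difference was -0.56 (SE 0.15), or 1.47-fold lower in quadriceps, and -1.30 with library totals. The tissues did not overlap for Osmr.

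Lifr was listed with 2 transcripts that behaved unlike. The longer one, of 9641 bases, had 1104, 1122 and 1003 counts in the heart libraries, against 1366, 821 and 747 in quadriceps. Its log2 difference was 0.88 (SE 0.14) with TMM, and 0.14 and not past the call rule with library totals. The shorter one, of 2825 bases, had 277, 291 and 219 counts in the heart libraries, against 206, 94 and 86 in quadriceps, with a log2 difference of -0.02 (SE 0.22). Reads from shared exons can count for both transcripts, and the difference between them was not tested.

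With the transcript of highest mean count standing for each gene, 8 of 9 members passed the filter. Of these, 3 were called higher in quadriceps (Cntfr, Il11ra1 and Lifr) and 2 lower (Lif and Osmr). Lif passed the filter through its heart libraries only, where it was high, so its call as lower carries no weight. Of all 24280 tested transcripts, 32.2% were called higher and 34.4% lower in quadriceps. Without overlap, 3 members were higher and 4 lower (Lif, Osmr, Il6ra and Il6st), beside 34.2% and 38.3% of all transcripts. The median log2 difference of the 8 genes was 0.10, beside -0.06 over all transcripts. With library totals the median of all transcripts was -0.80, and 3241 transcripts were called higher and 15203 lower in place of 7828 and 8354. Cntfr was higher in quadriceps and Osmr lower with either scaling. Lif was also lower with either, under the limit of the filter given above.

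**Figure D5:**
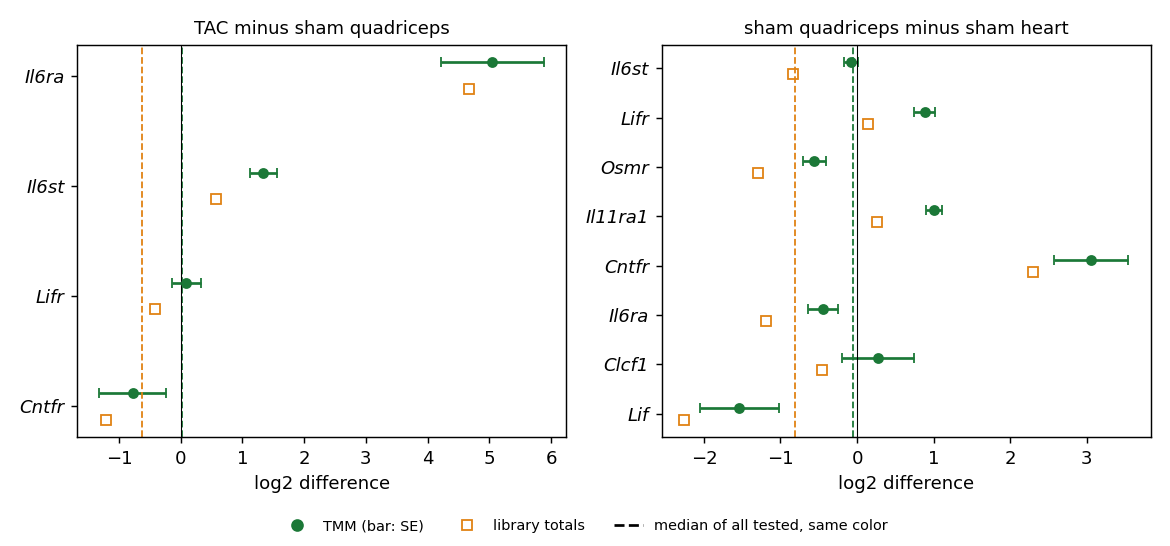
Log2 differences of the members in TAC minus sham quadriceps and in sham quadriceps minus sham heart. Filled circles with SE bars are on the TMM scale, open squares on the scale of library totals (TAC libraries 1 and 2 only), and dashed lines mark the median of all tested features on each scale. Between the 2 scalings, Il6ra, Il6st and Cntfr keep their sign within each comparison, while Lifr in TAC and Clcf1 between the tissues change theirs.

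The genes most like Cntfr across the 6 sham libraries were Mir7-1, Arnt2 and Gbx2, with root mean square differences of 0.35, 0.44 and 0.46 against a median of 1.72 over 14905 genes. All were lowly counted, and the measure again includes the difference between the groups. Arnt2, a bHLH-PAS transcription factor, had 9, 8 and 6 counts in the heart libraries, against 38, 40 and 16 in quadriceps.

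The other genes of the pathway differed in both directions between the sham tissues. Of 62 genes, 51 were tested, and 15 were called higher and 18 lower in quadriceps (edgeR quasi-likelihood test, adjusted over all transcripts), that is 29.4% and 35.3%, near the shares over all transcripts. With library totals 8 were higher and 33 lower. Here too the lists were chosen with earlier results known, so the calls are a description. The 12 signal transducers divided into 4 higher and 5 lower. Stat3 had 3484, 4244 and 3411 counts in the heart libraries, against 537, 649 and 450 in quadriceps, a log2 difference of -1.71 (SE 0.13). Gab1, a docking protein of the pathway, was also lower, with a log2 difference of -1.50 (SE 0.10). Stat5b, which also serves growth hormone, had 1192, 1245 and 1089 counts in the heart libraries, against 2820, 3311 and 1973 in quadriceps, with a log2 difference of 2.23 (SE 0.13). On the log2 scale with TMM, Jak2 was higher by 1.0025 (SE 0.17) and Jak1 by 0.39 (SE 0.10). With library totals Jak2 was no longer called and Jak1 was called lower, at -0.36.

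Inhibitors were lower in quadriceps for 4 of 9 genes and higher for 2, beside 34.4% and 32.2% of all transcripts. Cish, a SOCS family inhibitor, had 968, 1006 and 862 counts in the heart libraries, against 216, 30 and 19 in quadriceps, with a log2 difference of -2.48 (SE 0.55). Ptpn6, a phosphatase of blood cells, was at -1.79 (SE 0.20), and Socs3 at -0.68 (SE 0.26, edgeR adjusted p = 0.0420). Socs3 was called lower in only 7 of 13 alternative settings. Pias1 and Ptpn2, an inhibitor of STAT factors and a phosphatase, were higher by 0.39 (SE 0.11) and 0.36 (SE 0.12) with TMM and called lower with library totals, at -0.35 and -0.38. Ptpn2 was called higher in only 7 of 13 alternative settings. Both sheddases were lower in quadriceps, Adam17 at -1.22 (SE 0.13) and Adam10 at -0.51 (SE 0.13).

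Of the other ligands, 4 of 9 were tested, and 2 were higher in quadriceps. Cntf had 17, 9 and 8 counts in the heart libraries, against 40, 25 and 28 in quadriceps, a log2 difference of 2.48 (SE 0.34), and Ctf1 was at 1.32 (SE 0.16). Of the other receptors only Il27ra was tested, with 39, 66 and 57 counts in the heart libraries, against 2, 5 and 3 in quadriceps. Among 23 target genes tested, 7 were higher and 6 lower (30.4% and 26.1%), beside 32.2% and 34.4% of all transcripts. Fos, an immediate early gene, and Hp were higher by 4.22 (SE 0.68) and 3.22 (SE 0.48) on the log2 scale, while Bcl3 and Icam1 were at -2.43 (SE 0.21) and -1.84 (SE 0.21).

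Cell type markers also moved between the sham tissues. The summed RPKM was 91.6 to 98.6 in heart and 25.5 to 37.9 in quadriceps for the 9 macrophage markers, 160 to 176 and 30.7 to 38.5 for the 7 endothelial markers, and 342 to 381 and 138 to 226 for the 7 fibroblast markers. Adipocyte markers (6 of 6) were at 0.542 to 2.01 in heart and 12.6 to 104 in quadriceps, and Schwann cell markers (5 of 5) at 2.03 to 3.14 and 9.61 to 11.2. Satellite cell markers (4 of 4) were at 0.0120 to 0.0930 and 2.90 to 3.80. Hepatocyte markers (5 of 5) were at 0.0995 to 0.210 and 0.0628 to 1.30, and 2 of them were called higher in quadriceps. Alb among them had 53, 43 and 3 counts in quadriceps libraries 1, 2 and 3. Lymphocyte markers (7 of 7) were at 0.607 to 0.804 and 0.247 to 0.390, and neutrophil markers (6 of 6) at 0.456 to 0.774 and 0.386 to 0.887, of which Elane and Mpo were at 0 in every library. Their part in the differences of Cntfr, Lif, Osmr and the other members was not tested.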

How the data were processed

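RNA sequencing of sham heart, sham quadriceps and TAC quadriceps (3 libraries each) was used. The authors isolated RNA with RNeasy kits, made ScriptSeq v2 libraries, used Trim Galore! for trimming and STAR for alignment to mm10, and counted with Rsubread. The authors deposited raw counts per RefSeq transcript. The deposited RPKM values are counts divided by transcript length and library total, from which library totals were recovered. The deposited tables also hold the authors' fold changes and p-values, which were not used. A TAC column carries the number 4 where the labels run to 3, and was used as a TAC replicate without pairing. Its RPKM column was the 1 column of a single library left unused, so that RPKM and library totals of TAC rest on libraries 1 and 2.

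Counts were fitted with edgeR 4.0.16 (R 4.3.3) after TMM, on features that exceed 5 counts in 2 libraries or more. The quasi-likelihood test was used, with p-values adjusted by the Benjamini-Hochberg method. Normalized counts refer to the libraries of 1 table. The SE is the log2 difference divided by the square root of F. With simulated counts in which 200 genes differed by 2 on the log2 scale, 98.5% were recovered among 586 genes (TAC) and 91% among 23861 transcripts (heart), with 4.37% and 4.71% false calls. The simulation gave all features the same dispersion and changed only features above a minimum mean count. These rates therefore need not hold for genes with few counts or a wide spread between libraries. Alternatives were library totals, DESeq2 1.42.0 and its size factors, other filters, 1 transcript per gene, the study's fold criterion, a replicate block and leaving out each library. Replicate libraries differed by more than sampling noise (the lowest chi-square over its degrees of freedom was 7.10), and the study calls its replicates biological. How mice were assigned to libraries is not given in the sources used here, so p-values measure the spread between libraries.

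The 9 members, the pathway and marker lists and the rules were chosen with earlier results of these data known. Named genes were all members. Of the pathway lists they were all genes in the TAC table and, between the tissues, the 2 largest called differences in each direction per list with Socs3, Stat3, Jak1, Osm and Il11. The 3 nearest genes to Il6ra and to Cntfr were added. Gm42809, Il11ra2, Myh4, Myh6, Alb and marker genes are named for checks. Positions are from GENCODE vM21 and promoters from RefSeq. Python 3.11.15 drew the figures.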

Additional observations from a re-analysis of the deposited data

How the results depend on the processing

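In TAC quadriceps with library totals, which leave out TAC library 4, 1 member was past the threshold, genes called numbered 20 higher and 180 lower in place of 104 and 70, pathway genes called lower numbered 1, and the log2 differences were 0.58 for Il6st and -0.41 for Lifr. The fold criterion gave 67 genes higher. Leaving out a library gave 25 to 113 genes higher and 35 to 102 lower, with 25, 35 and 34 higher without sham libraries 1, 2 and 3, 62 without TAC library 1 and 65 without TAC library 4, and 35 and 38 lower without sham libraries 1 and 3. It gave 3.73 to 5.53 for Il6ra and -1.40 to -0.14 for Cntfr. 

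Between sham tissues, library totals gave 3241 transcripts higher and 15203 lower in place of 7828 and 8354, pathway genes of 8 and 33 in place of 15 and 18, and log2 differences of 0.26 for Il11ra1, -0.45 for Clcf1, -1.19 for Il6ra, -0.84 for Il6st, -1.30 for Osmr and 0.14 for Lifr. With 1 transcript per gene, 4744 were higher and 5059 lower, of fewer tested. The fold criterion gave 1699 and 2097. Il6st was at -0.12 without a filter and -0.15 with at least 10 counts in every library, and at -0.089 to -0.034 when a library was left out. The cause of these shifts was not tested. Without a filter Il6 also passed, on counts of 0 to 6. Lif did not pass with DESeq2, and Il6ra passed as lower without quadriceps library 3, at -0.56, and with at least 10 counts in every library, at -0.51.

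Same-numbered libraries did not deviate together (r = 0.060 in TAC, -0.036 to 0.064 between tissues). In TAC only libraries 1 and 2 entered, which forces their r values to be equal. A low correlation cannot show that same-numbered libraries have no mouse in common, so whether the numbers pair the samples is unknown. The main fit did not use them as pairs. With the replicate block on quadriceps libraries 1 and 2, 56 genes were higher, and the same 4 libraries without the block, added after the data were seen, gave 49 higher and 39 lower. The block between the sham tissues changed no member's call. Depth limits the ligands most, as Il6 and Lif had 6 counts or fewer in every sham quadriceps library.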
